A study of Mus musculus with 8 samples.

Results

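The MHC class II genes of the mouse intestinal epithelium were followed here as 8 genes, H2-Aa, H2-Ab1, H2-Eb1, Cd74, Ciita, H2-DMa, H2-DMb1 and H2-DMb2, taken by gene name from a table of 54139 genes. All 8 were found once each, and all 8 passed the filter on low counts. RNA was sequenced from intestinal epithelial cells of mice in 8 libraries. The 4 cKO libraries came from animals with a floxed Rictor allele and Villin-Cre, and the 4 WT libraries came from animals with Villin-Cre alone, so that the Cre driver was common to all of them. Villin-Cre expresses Cre recombinase in the epithelium of the gut, which leaves Rictor intact in lymphocytes and other cells that travel with it. The sources used here give no intestinal segment, age, sex, strain, floxed exons or isolation method, and do not say whether libraries are separate animals.

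MHC class II molecules display peptides from the endosomal pathway to CD4 T cells. They are best known from dendritic cells, macrophages and B cells, but enterocytes of the small intestine also carry them, and interferon gamma is the classical inducer there. The transactivator CIITA does not bind DNA itself. It is recruited by RFX, CREB and NF-Y proteins that sit on paired X and Y boxes in front of each class II gene. The alpha and beta chains assemble on the invariant chain, encoded by Cd74, and H2-DM later exchanges the remnant of that chain for peptide. Rictor defines mTOR complex 2, and the design compares epithelium in which Rictor was targeted with epithelium in which it was not.

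Sequencing depth was similar in both genotypes, with 15110451 to 18351748 counts per cKO library and 15982538 to 18708335 per WT library. Rictor itself was at 32.8 ± 9.24 CPM in cKO and 48.2 ± 7.51 CPM in WT (SD, n = 4 each; CPM is a gene's count relative to the TMM-scaled library total), with a log2 fold change of -0.55 ± 0.20 (SE, edgeR adjusted p = 0.921) and no overlap between groups. One library stood apart: cKO library 3 had 39.2% of the variance of its deviations from the mean of all libraries on transcript length and GC content, against 0.828% to 6.63% in the other libraries. Epithelial markers were high in every library, with 10 of 10 genes tested and a summed level of 9850 to 13000 CPM in cKO and of 10200 to 11500 CPM in WT. Stromal and endothelial markers summed to 6.29 to 9.54 CPM in cKO and 5.36 to 8.47 CPM in WT. In bulk RNA such as this, fewer cells of a type and less RNA per cell cannot be told apart.

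Promoter windows of 5 of these genes were searched for the letters of the X and Y boxes, and 4 promoters are printed. Of these, 3 hold an X core before a Y core, and that of H2-DMb2 is for comparison with its close copy H2-DMb1. Each is 300 bases from RefSeq on mouse build GRCm38.p6, 250 before and 50 after the annotated transcript start, 5′ to 3′ on the strand of the gene. Capitals mark the core GNAAC of an X box and the core ATTGG of a Y box (CCAAT on the other strand) where the X core stood 20 to 60 bases before the Y core, and in H2-DMb2 the Y core alone. The windows are chr17:34287774-34288073 (minus strand) for H2-Aa, chr17:34305617-34305916 (plus) for H2-Eb1, chr17:34152941-34153240 (plus) for H2-DMb1 and chr17:34144999-34145298 (plus) for H2-DMb2.
H2-Aa: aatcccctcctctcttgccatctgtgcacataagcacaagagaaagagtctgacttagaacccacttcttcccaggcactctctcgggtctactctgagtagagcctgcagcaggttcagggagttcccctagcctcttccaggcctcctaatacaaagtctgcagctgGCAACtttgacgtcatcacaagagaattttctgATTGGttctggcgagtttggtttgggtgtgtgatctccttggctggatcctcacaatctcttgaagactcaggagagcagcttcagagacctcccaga
H2-Eb1: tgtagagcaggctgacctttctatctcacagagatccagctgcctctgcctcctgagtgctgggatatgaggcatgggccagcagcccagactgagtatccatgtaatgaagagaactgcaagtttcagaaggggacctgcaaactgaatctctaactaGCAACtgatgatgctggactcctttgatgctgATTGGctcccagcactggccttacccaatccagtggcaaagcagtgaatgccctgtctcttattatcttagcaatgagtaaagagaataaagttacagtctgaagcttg
H2-DMb1: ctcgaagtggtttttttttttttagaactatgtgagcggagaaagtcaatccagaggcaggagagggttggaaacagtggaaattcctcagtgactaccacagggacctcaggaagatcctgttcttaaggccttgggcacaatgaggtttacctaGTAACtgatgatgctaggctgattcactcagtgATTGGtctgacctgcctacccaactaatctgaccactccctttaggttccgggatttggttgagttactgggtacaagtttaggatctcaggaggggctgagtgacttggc
H2-DMb2: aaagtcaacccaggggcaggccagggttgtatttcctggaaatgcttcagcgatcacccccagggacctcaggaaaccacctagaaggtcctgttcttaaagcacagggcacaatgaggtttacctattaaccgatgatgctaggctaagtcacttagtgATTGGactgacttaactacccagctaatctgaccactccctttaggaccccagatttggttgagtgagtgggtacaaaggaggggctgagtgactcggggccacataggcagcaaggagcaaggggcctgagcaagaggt
In H2-Aa the X core began at -81 and the Y core at -48 relative to the start, 33 bases apart. In H2-Eb1 they began at -91 and -59, 32 bases apart, and in H2-DMb1 at -94 and -61, 33 bases apart. In H2-DMb2 the Y core began at -90 and these X core letters did not precede it within the range. The longest run common to H2-Eb1, H2-DMb1 and H2-DMb2 was the 9 letters GATGATGCT, which began 26, 27 and 27 bases before the Y core in those genes. Searched on both strands, the X core was in 84.8% of 32851 promoters of this length, the Y core in 37.4%, the X core followed by the Y core at this spacing in 6.15% and the 9-letter run in 0.274%. The positions given for the printed promoters come from the strand of the gene only, a narrower search than that behind these shares. The spacing range and the run were chosen after these promoters were read. The window of H2-DMb2 surrounds a start at 34145249, inside the gene as deposited, which begins at 34143307. The table also holds 2 windows for H2-DMa, around starts at 34122832 and 34125518. Neither had the pair, but both lie far upstream of the deposited start of H2-DMa at 34135182 and are not the sequence in front of the gene as counted, so they are not printed. In all, windows of 5 of the 8 genes were used. H2-Ab1 and Ciita had no usable window. Cd74 was left out of the search, and whether its promoter holds the pair is not reported. The count of promoters with the pair does not cover these genes.

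The invariant chain was the most abundant of these transcripts. Cd74 (ENSMUSG00000024610, chromosome 18, 60803848 to 60812646, plus strand) had 133, 34.2, 593 and 33.7 CPM in cKO libraries 1 to 4, against 176, 73.0, 357 and 67.0 CPM in WT libraries 1 to 4. The lowest and the highest level were both in cKO, where they differed 17.6-fold, and the WT libraries, which lay between, differed 5.33-fold. These differences were far wider than counting error: cKO library 4 rested on 525 counts (exact 95% Poisson interval 481 to 572) and cKO library 3 on 10551. Such intervals cover counting error only.

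**Figure D1:**
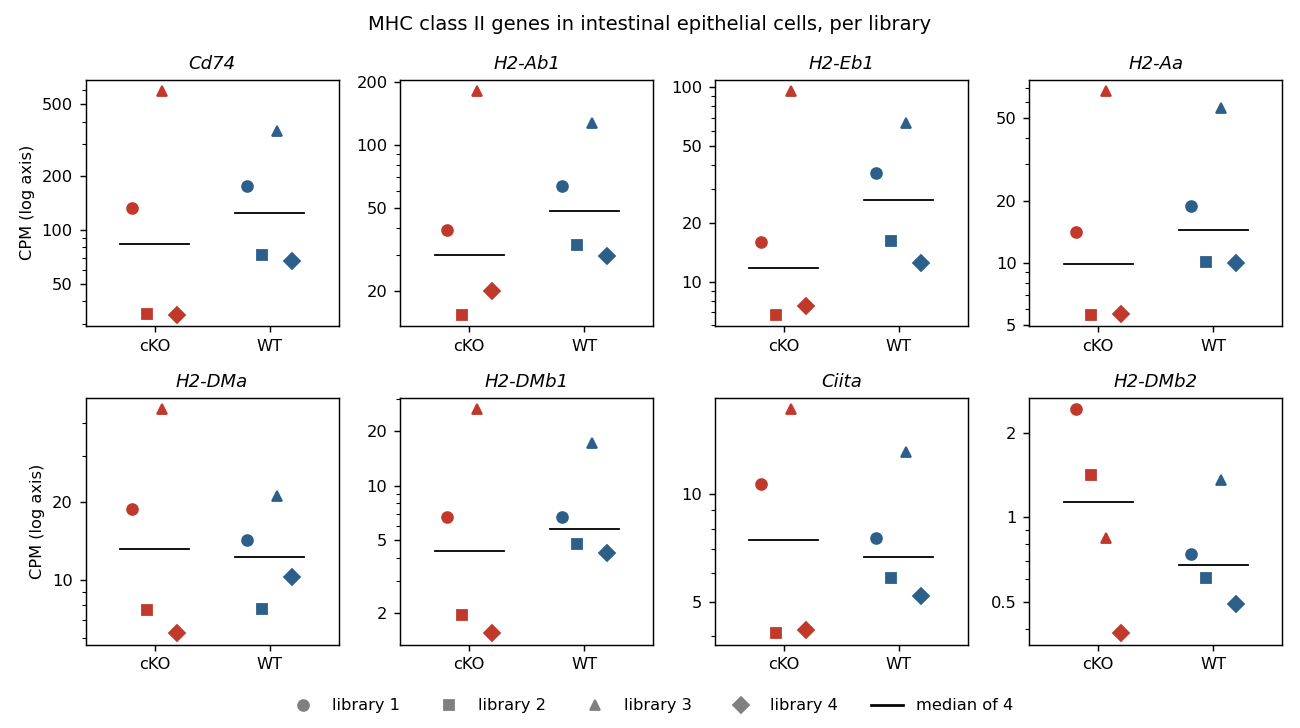
CPM (log axis) of each of the 8 genes in every library, with cKO left and WT right, symbols for library numbers and a line at the median of 4. For 7 genes cKO library 3 is highest and WT library 3 next, while cKO libraries 2 and 4 lie lowest.

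The chains of the class II heterodimers also had their highest levels in libraries 3. H2-Ab1, the beta chain of I-A (ENSMUSG00000073421, chromosome 17, 34263209 to 34269418, plus strand), had 39.5, 15.5, 181 and 20.03 CPM in cKO libraries 1 to 4, against 63.7, 33.4, 127 and 29.5 CPM in WT libraries 1 to 4. Its partner H2-Aa, the alpha chain of I-A (ENSMUSG00000036594, chromosome 17, 34282744 to 34287827, minus strand), had 14.0, 5.61, 67.8 and 5.65 CPM in cKO, against 18.8, 10.1, 56.2 and 10.03 CPM in WT. H2-Eb1, the beta chain of I-E (ENSMUSG00000060586, chromosome 17, 34305877 to 34316199, plus strand), had 16.0, 6.79, 95.8 and 7.51 CPM in cKO, against 36.2, 16.3, 65.9 and 12.5 CPM in WT. In each of the 3 chains cKO library 3 was highest, WT library 3 came next, then WT library 1, cKO libraries 4 and 2 were lowest, and the groups overlapped. From the lowest to the highest library these genes differed 12.1-fold for H2-Aa, 11.7-fold for H2-Ab1 and 14.1-fold for H2-Eb1. The alpha chain of I-E has only a pseudogene in this annotation. H2-Ea-ps had 6, 2, 0 and 0 counts in cKO libraries 1 to 4, against 0, 0, 0 and 1 counts in WT libraries 1 to 4, and did not pass the filter on low counts.

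The peptide editor H2-DM is a dimer of H2-DMa with a beta chain that the mouse encodes in a pair of neighbouring genes. H2-DMa (ENSMUSG00000037649, chromosome 17, 34135182 to 34139101, plus strand) had 18.7, 7.68, 45.2 and 6.23 CPM in cKO libraries 1 to 4, against 14.2, 7.74, 21.0 and 10.3 CPM in WT libraries 1 to 4. H2-DMb1 (ENSMUSG00000079547, chromosome 17, 34153072 to 34160230, plus strand) had 6.75, 1.95, 26.3 and 1.54 CPM in cKO, against 6.73, 4.75, 17.2 and 4.28 CPM in WT. Both were again highest in cKO library 3 and then in WT library 3, and the groups overlapped for both. H2-DMb2 (ENSMUSG00000037548, chromosome 17, 34143307 to 34151553, plus strand) had 2.43, 1.42, 0.843 and 0.385 CPM in cKO, against 0.742, 0.608, 1.36 and 0.489 CPM in WT. It was the exception, with its highest levels in cKO libraries 1 and 2, where H2-DMb1 was at 6.75 and 1.95 CPM. Its counts were small, from 6 to 41 in cKO and from 8 to 22 in WT. The longest annotated transcripts of H2-DMb1 and H2-DMb2 were 94.6% identical over 1219 aligned bases, so reads could have been split between the 2 genes in a way the counting does not record, and the H2-DMb2 level is uncertain for that reason.

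Ciita, the transactivator (ENSMUSG00000022504, chromosome 16, 10480059 to 10528418, plus strand), had 10.7, 4.08, 17.3 and 4.17 CPM in cKO libraries 1 to 4, against 7.53, 5.80, 13.1 and 5.20 CPM in WT libraries 1 to 4. The order of libraries was close to that of its targets, with a narrower range: 4.23-fold in cKO and 2.52-fold in WT, where Cd74 spanned 17.6-fold and 5.33-fold. The groups overlapped.

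No genotype effect on these genes was detected. Of the 8 genes 0 passed the adjusted threshold of 0.05 in edgeR's quasi-likelihood test, against 0.0136% of the 14701 genes tested (0.00680% higher and 0.00680% lower in cKO), and 0 had an unadjusted p under 0.05, against 3.90% of all genes. DESeq2 called 0 of the 7 to which it gave an adjusted p (H2-Aa received none), against 0.267% of all genes, and limma voom called 0. The groups did not overlap for 0 of the 8, against 3.21% of all genes. Point estimates were lower in cKO for 2 of 8, against 49.5% of all genes, with a median log2 fold change of 0.18 over the 8 and of 0.0022 over all genes. With shares this small over all genes, a count of 0 in 8 lies near the background.

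The spread between libraries set wide limits on each estimate. Cd74 averaged 198 ± 267 CPM in cKO and 168 ± 135 CPM in WT (SD, n = 4 each), a log2 fold change of 0.24 ± 1.07 (SE, edgeR adjusted p = 0.974). Its 95% interval ran from 0.203-fold to 6.88-fold, so changes of several fold in either direction lay inside it. The log2 fold changes of H2-Aa, H2-Ab1 and H2-Eb1 were -0.024 ± 1.002, 0.015 ± 0.91 and -0.050 ± 1.005 (SE), with intervals of 0.189-fold to 5.12-fold, 0.228-fold to 4.49-fold and 0.185-fold to 5.05-fold. H2-DMb1 was at 0.15 ± 0.94 and H2-DMa at 0.55 ± 0.66. Ciita, at 0.20 ± 0.50, had the narrowest interval, 0.525-fold to 2.50-fold, and H2-DMb2 was at 0.67 ± 0.53, with 0.715-fold to 3.54-fold. Over all genes tested the median SE was 0.17.

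**Figure D2:**
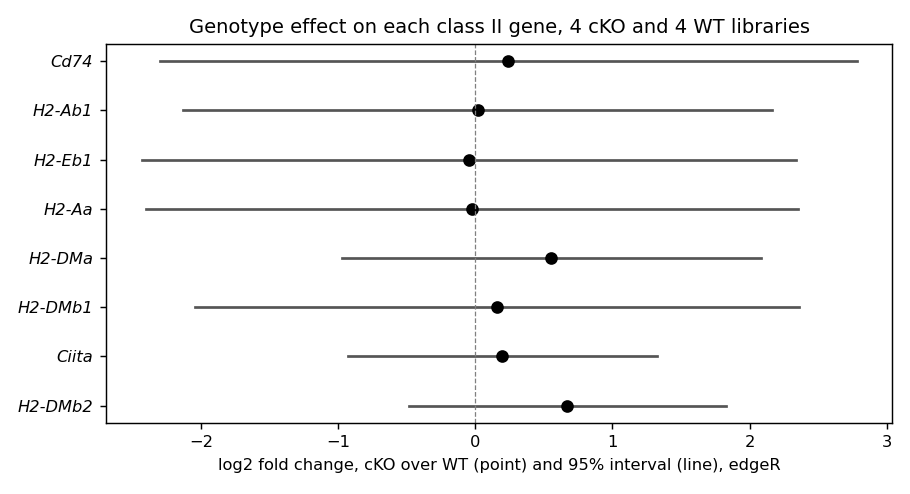
Log2 fold change of cKO over WT for each of the 8 genes (points) with its 95% interval (lines) from edgeR, 4 libraries a group. All 8 intervals contain 0, and those of Cd74, H2-DMb1 and the H2-A and H2-E chains extend beyond 2 log2 units on both sides.

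The sign of the estimate depended on how libraries were averaged. The mean log2 CPM of Cd74 was lower in cKO than in WT by -0.44, with an exact two-sided permutation p of 0.657, while edgeR, whose estimate follows the mean count, gave 0.24. The same turn of sign held for H2-Ab1 (-0.46, exact p = 0.600) and H2-DMb1 (-0.51, exact p = 0.657). Over all 8 genes the exact permutation p ran from 0.457 to 0.971, where 4 against 4 can reach 0.0286. Without cKO library 3 the log2 fold changes were -1.33 for Cd74, -1.34 for H2-Ab1, -1.49 for H2-Aa, -1.69 for H2-Eb1, -1.26 for H2-DMb1, -0.32 for Ciita and -0.29 for H2-DMa. Without WT library 3 they were 0.92, 0.60, 0.85, 0.54, 0.80, 0.55 and 0.86 in the same order of genes. Without both libraries 3 they were -0.65, -0.76, -0.62, -1.10, -0.62, 0.03 and 0.016. H2-DMb2 stayed between 0.15 and 1.04 without any 1 library. None of the 8 passed the adjusted threshold in any of the 21 fits, with adjusted p from 0.606 to 1.

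Of the 8 genes, all but H2-DMb2 moved together from library to library within both genotypes. In WT H2-DMb2 had the order of libraries that Cd74 and Ciita had, 3, 1, 2 and 4 from the highest, and it departed from them in cKO. Over the 8 libraries of both genotypes, the 21 pairs without H2-DMb2 had a Pearson r of log2 CPM between 0.885 and 0.995, with a median of 0.965. The 7 pairs with H2-DMb2 had r between 0.165 and 0.448. The points of these correlations are the same 8 libraries, so a library-wide shift enters all of them. Averaged over the 8 genes and centred on the mean of all libraries, the log2 level was 0.25, -1.11, 1.71 and -1.32 in cKO libraries 1 to 4, and 0.28, -0.49, 1.27 and -0.60 in WT libraries 1 to 4. The highest library, cKO 3, thus stood 8.21-fold above the lowest, cKO 4, and WT 3 stood 6.04-fold above it. The SD of log2 CPM over the 8 libraries was 1.51 for Cd74, 1.40 for H2-Eb1, 1.37 for H2-DMb1, 1.36 for H2-Aa and 1.24 for H2-Ab1, against a median of 0.26 over all genes tested. Only 0.497% of genes had a larger SD than Cd74 and 0.952% a larger SD than H2-Ab1.

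**Figure D3:**
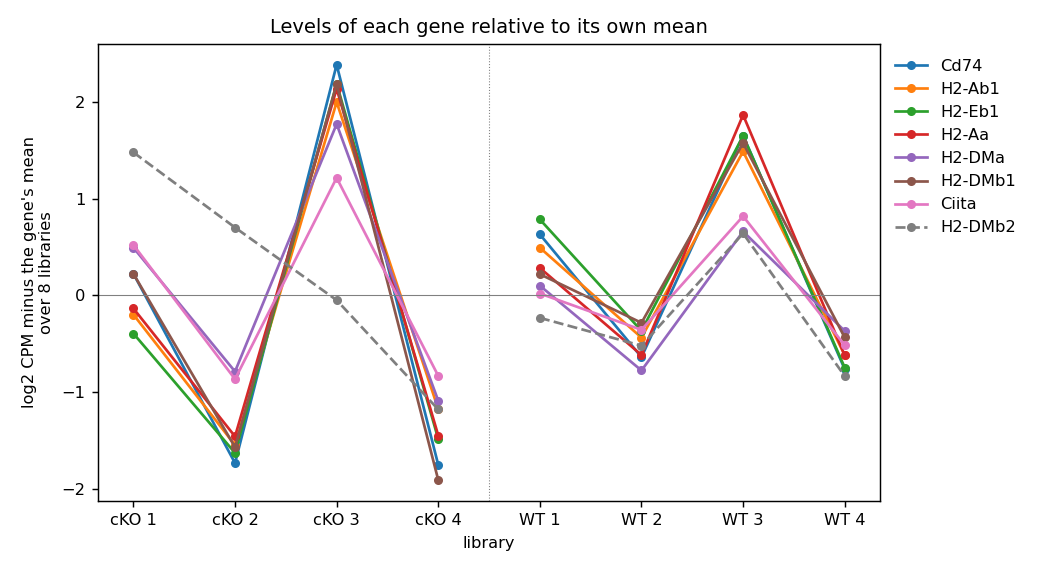
Log2 CPM of each gene minus its own mean over the 8 libraries, by library, with cKO left of WT. The solid lines of 7 genes peak at library 3 in both genotypes, and the dashed line of H2-DMb2 peaks at cKO library 1.

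The high levels in cKO library 3 stood beside the length and GC trend of that library. With the trend removed from every library, cKO library 3 was still the highest for 7 of the 8 genes, with Cd74 at 495 CPM there and at 35.4 CPM in cKO library 4, against 369 CPM in WT library 3 and 70.2 CPM in WT library 4. Cd74 then spanned 14.2-fold, H2-Aa 13.1-fold and Ciita 3.71-fold. WT library 3, the second highest, had 3.47% of the variance of its deviations on length and GC content. Averaged over their list, epithelial markers were also highest in cKO library 3 and then WT library 3, over a narrower range. Their centred log2 level was 0.039, -0.098, 0.24 and -0.098 in cKO libraries 1 to 4, and -0.066, -0.039, 0.10 and -0.088 in WT libraries 1 to 4. Members differed: Krt19 and Cdx1 were highest of all in cKO library 3, at 2303 and 272 CPM, but lowest of all in WT library 3, at 1526 and 203 CPM. Vil1, Krt20 and Epcam were highest of all in WT library 3, at 2017, 812 and 1734 CPM. In cKO library 3 Epcam was at 1541 CPM, below cKO library 4 at 1640 CPM, and Krt20 was at 421 CPM, below cKO library 1 at 693 CPM. For the list mean, Pearson r with the class II pattern was 0.915 over the same 8 libraries. For the other lists r ran from 0.046 for distal gut genes to 0.756 for macrophage and monocyte markers. The part of epithelial content in the pattern was not tested.

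Ciita levels tracked those of the genes CIITA controls. Between Ciita and Cd74 the Pearson r of log2 CPM was 0.967 (exact permutation p = 0.000298, adjusted over 7 relations 0.00104) and Spearman's rho 0.952 (exact p = 0.00114, adjusted 0.0016), over n = 8 libraries. For H2-Aa, H2-Ab1, H2-Eb1, H2-DMa and H2-DMb1 r lay between 0.910 and 0.962, with adjusted exact permutation p from 0.00104 to 0.00521, and rho between 0.929 and 0.976, with adjusted exact permutation p from 0.000926 to 0.0026. Leaving out cKO library 3 and WT library 3, the 2 farthest from the median of Ciita, r was 0.897 for Cd74, 0.930 for H2-DMa, 0.878 for H2-DMb1, 0.856 for H2-Aa, 0.788 for H2-Ab1 and 0.712 for H2-Eb1 over 6 libraries. Taken as deviations from group means the 6 values lay between 0.944 and 0.983. H2-DMb2 differed, with r = 0.448 (exact permutation p = 0.269, adjusted 0.269) and rho = 0.357 (exact p = 0.389, adjusted 0.389). Within genotypes of 4 libraries each, its r with Ciita was 0.295 in cKO and 0.996 in WT. These genes were brought together with their levels already known, so the p-values describe the relation and are no independent support for it.

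**Figure D4:**
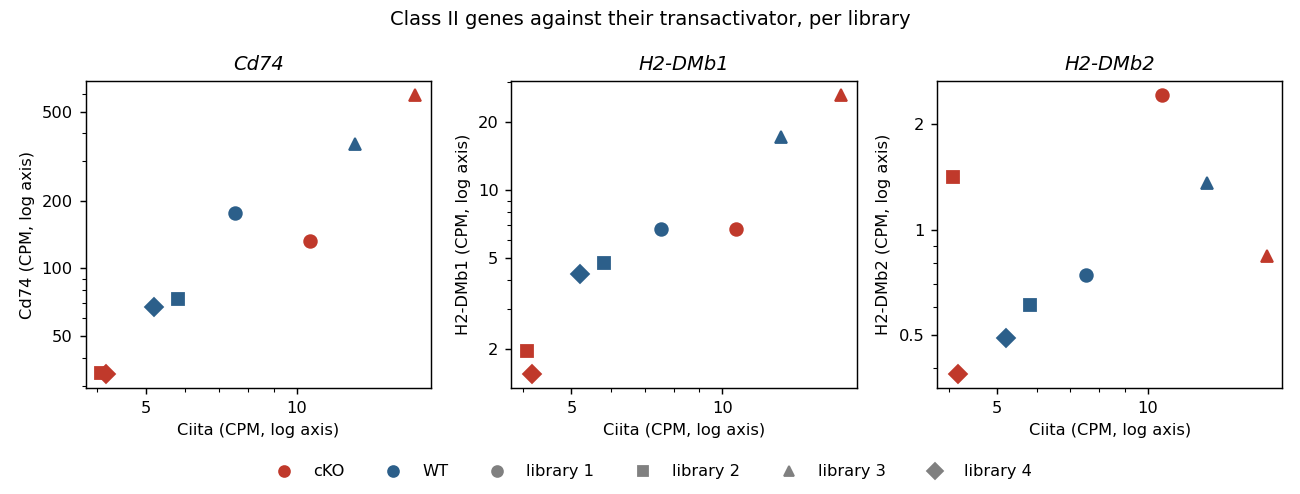
Cd74, H2-DMb1 and H2-DMb2 against Ciita in each library (CPM, both axes log), cKO in red and WT in blue, with symbols for library numbers. Cd74 and H2-DMb1 increase with Ciita from cKO libraries 2 and 4 at the lower left to cKO library 3 at the upper right, and for H2-DMb2 cKO libraries 1 and 2 lie above the other points.

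Per length of gene, on the authors' FPKM scale (values divided by the length of the gene as well as by depth), the order of the genes was nearly the same in every library. Cd74 had a median of 72.0 FPKM over the 8 libraries, H2-Ab1 22.0, H2-Eb1 13.5, H2-DMa 7.38, H2-Aa 6.35, H2-DMb1 3.83, Ciita 0.692 and H2-DMb2 0.459. Cd74 exceeded H2-Ab1, H2-Ab1 exceeded H2-Eb1 and H2-Eb1 exceeded H2-Aa in 8 of 8 libraries. H2-DMa and H2-Aa were not separable, with H2-Aa higher in 4 of 8, and Ciita exceeded H2-DMb2 in 6 of 8. The ratio of Cd74 to H2-Ab1 was 3.90, 2.56, 3.81 and 1.95 in cKO libraries 1 to 4, and 3.20, 2.53, 3.27 and 2.63 in WT libraries 1 to 4, and so varied 2-fold where Cd74 itself varied 17.6-fold. The ratio of the paired chains H2-Aa and H2-Ab1 stayed between 0.246 and 0.387, and that of H2-Eb1 to H2-Ab1 between 0.518 and 0.786. Ciita and H2-DMa varied less than the chains. The ratio of Ciita to H2-Ab1 was 0.0164 in cKO library 3 and 0.0452 in cKO library 2, against 0.0177 in WT library 3 and 0.0302 in WT library 4, and was thus lowest where class II was highest.

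The rest of the class II region was near the limit of detection. H2-Oa and H2-Ob encode H2-DO, the inhibitor of H2-DM that is typical of B cells. H2-Ob had 1.185, 0.650, 1.35 and 1.35 CPM in cKO libraries 1 to 4, against 0.477, 1.105, 2.66 and 0.978 CPM in WT libraries 1 to 4, and H2-Oa had at most 0.650 CPM in cKO and 0.371 CPM in WT. H2-Eb2 was between 0.128 and 1.06 CPM in cKO and between 0.159 and 1.05 CPM in WT. H2-Ob and H2-Eb2 had log2 fold changes of -0.19 ± 0.48 and 0.19 ± 0.63 (SE, edgeR adjusted p = 0.958 and 0.969), whose signs turned when 1 library was left out (-0.47 to 0.41 and -0.19 to 0.70). H2-Oa and H2-Ea-ps did not pass the filter.

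Of the DNA-bound partners of CIITA, 7 of 7 genes were tested, 4 with higher and 3 with lower point estimates in cKO and 0 called (median log2 fold change 0.054). Their summed level varied little, at 196 to 225 CPM in cKO and 214 to 225 CPM in WT. The sum hides low members: Nfya, of NF-Y, varied 6.68-fold, from 1.17 CPM in WT library 3 to 7.85 CPM in WT library 1. In cKO Nfya was highest in library 3, at 3.82 CPM. The member with the smallest p was Creb1, at 69.9 ± 17.4 CPM in cKO and 81.0 ± 6.13 CPM in WT (SD, n = 4 each). It had a log2 fold change of -0.21 ± 0.17 (SE, edgeR adjusted p = 0.921), with its lowest level, 44.55 CPM, in cKO library 3, where the class II genes were highest. Without cKO library 3 Creb1 was at -0.049. Rfx5, which with Rfxap and Rfxank forms the X box factor, had 9.48, 12.8, 13.5 and 14.4 CPM in cKO libraries 1 to 4, against 10.9, 9.51, 13.7 and 14.4 CPM in WT libraries 1 to 4.

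Genes between the interferon gamma receptor and Ciita were tested for 11 of 11, 7 higher and 4 lower in cKO with 0 called (median 0.050). Irf1, an interferon-induced factor that acts on the Ciita promoter, had 196, 127, 235 and 128 CPM in cKO libraries 1 to 4, against 149, 144, 150 and 139 CPM in WT libraries 1 to 4. In cKO its 2 highest libraries were those with the highest class II levels, while in WT it varied little and WT library 3 was not set apart. Jak2, the kinase of the receptor with the smallest p of the list, was at 95.4 ± 23.9 CPM in cKO and 117 ± 30.1 CPM in WT, a log2 fold change of -0.29 ± 0.21 (SE, edgeR adjusted p = 0.921). Without WT library 3 it was at -0.097, and without both libraries 3 at 0.042. Ifng itself had 0 counts in 4 libraries and at most 0.183 CPM, in WT library 4.

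Of 22 interferon gamma target genes 19 were tested, 14 higher and 5 lower in cKO with 0 called (median 0.15). Averaged over the list, the centred log2 level was 0.76 in cKO library 1 and 0.13 in cKO library 3, with -0.47 and -0.11 in cKO libraries 2 and 4, against 0.29 and 0.27 in WT libraries 3 and 4 and -0.49 and -0.39 in WT libraries 1 and 2. The order differed from that of class II: cKO library 1 was highest, and WT library 4 stood with WT library 3. Nlrc5, the transactivator of class I genes, had 15.8, 4.84, 11.85 and 8.54 CPM in cKO libraries 1 to 4, against 5.355, 5.14, 5.87 and 8.68 CPM in WT libraries 1 to 4, a log2 fold change of 0.71 ± 0.33 (SE, edgeR adjusted p = 0.921). Without cKO library 1 Nlrc5 was at 0.43. B2m, the light chain of class I, had 672, 483, 931 and 737.5 CPM in cKO, against 582, 635, 1072 and 742 CPM in WT, with libraries 3 highest in both genotypes.

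Genes of endosomal processing were tested for 11 of the 12 in the table, 8 higher and 3 lower in cKO with 0 called (median 0.12). Ctss, the protease that trims the invariant chain in professional antigen-presenting cells, had 92.1, 57.4, 74.8 and 78.8 CPM in cKO libraries 1 to 4, against 61.9, 66.6, 101 and 77.6 CPM in WT libraries 1 to 4. Ifi30, an endosomal thiol reductase, had an unadjusted edgeR p of 0.0324 (adjusted p = 0.921) and a log2 fold change of 1.41 ± 0.57 (SE). Its level was 0.711, 1.18, 1.12 and 4.75 CPM in cKO libraries 1 to 4, against 0.477, 0.884, 0.742 and 0.795 CPM in WT libraries 1 to 4, and without cKO library 4 it was at 0.48. Of 7 co-stimulatory and co-inhibitory genes 3 were tested, with 3 higher in cKO and 0 called. Cd80, Cd86 and Cd40, the ligands that accompany class II on professional antigen-presenting cells, had at most 0.257 CPM in cKO and 0.489 CPM in WT. Cd274, the ligand of PD-1, had 2.43, 1.83, 2.36 and 1.41 CPM in cKO, against 1.485, 1.66, 1.85 and 2.26 CPM in WT.

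Professional antigen-presenting cells carry the same class II genes, so their markers are given beside the pattern. Of 10 dendritic cell markers 2 passed the filter, and the list summed to 9.36, 7.98, 14.4 and 6.10 CPM in cKO libraries 1 to 4, against 4.67, 3.21, 8.53 and 12.8 CPM in WT libraries 1 to 4. The highest cKO sum was in library 3, next library 1, and the highest WT sum was in library 4. Itgax, which encodes CD11c and is the most abundant of the list, had 5.09, 2.245, 9.61 and 3.145 CPM in cKO, against 3.61, 2.045, 4.76 and 6.91 CPM in WT. Xcr1 and Batf3, which mark type 1 dendritic cells, had 0 counts in some libraries of both genotypes and at most 0.225 and 0.112 CPM in cKO and 0.247 and 0.124 CPM in WT. B and plasma cell markers, 9 of 14 tested, summed to 23.8, 34.4, 39.3 and 20.5 CPM in cKO libraries 1 to 4, against 23.5, 26.1, 42.9 and 33.6 CPM in WT libraries 1 to 4. The highest sum of each genotype was in library 3. Averaged over the 9 tested genes, the centred log2 level was instead highest in library 2 within cKO, at 0.47, against -0.052 in cKO library 3. Within WT it was highest in library 3, at 0.79. Members differed within cKO: Cd79b, a part of the B cell receptor, was highest in cKO library 3, at 5.11 CPM against 1.605 to 2.72 CPM in the other cKO libraries, and so were Jchain, at 9.61 CPM, and Spib, at 15.96 CPM. Ms4a1, which encodes CD20, was lowest there, at 0.843 CPM against 0.963 to 2.599 CPM, while in WT it was highest in library 3, at 4.45 CPM. The part of dendritic cells and of B cells in the class II pattern was not tested.

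Macrophage and monocyte markers, 7 of 13 tested, summed to 50.2, 33.7, 67.5 and 45.4 CPM in cKO libraries 1 to 4, against 34.6, 43.5, 70.1 and 36.1 CPM in WT libraries 1 to 4, and so were highest in libraries 3. Adgre1, which encodes F4/80, had 0 counts in some libraries of both genotypes and at most 0.474 CPM in cKO and 0.371 CPM in WT. The complement genes C1qa, C1qb and C1qc, typical of tissue macrophages, were low and did not pass the filter, but their highest levels were in cKO libraries 1 and 3. C1qa had 1.007, 0.650, 1.405 and 0.5135 CPM in cKO, against 0.212, 0.166, 0.309 and 0.489 CPM in WT. C1qc had 1.066, 0.532, 1.405 and 0.385 CPM in cKO, against 0.0530, 0.166, 0.185 and 0.245 CPM in WT. The groups did not overlap for C1qa and C1qc, and overlapped for C1qb. For C1qa the lowest cKO level, 0.5135 CPM, lay close to the highest WT level, 0.489 CPM. Among the 7 tested genes of the list 0 had groups without overlap, against 3.21% of all genes tested. Csf1r, the macrophage growth factor receptor, had 1.90, 0.414, 2.19 and 0.578 CPM in cKO, against 0.318, 0.166, 0.680 and 0.428 CPM in WT, a log2 fold change of 1.68 ± 0.60 (SE, edgeR adjusted p = 0.921). The part of macrophages in the class II pattern was not tested. Siglech, with the smallest p of the dendritic list, was at 0.54 ± 0.52 (SE), and Jchain, with that of the B cell list, at 0.67 ± 0.37 (SE, edgeR adjusted p = 0.921 for both). Siglech was at 0.23 without WT library 1, at 0.31 without WT library 2 and at 1.27 without WT library 4, and Jchain at 0.26 without cKO library 3.

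Intraepithelial lymphocytes lie between the epithelial cells and can supply interferon gamma. Their markers, 16 of 18 tested with 14 higher and 2 lower in cKO and 0 called, summed to 548, 240, 774 and 270 CPM in cKO libraries 1 to 4, against 231, 186, 344 and 620 CPM in WT libraries 1 to 4. In cKO library 3 was highest and library 1 next, as for the class II sums of 1030 and 241 CPM. In WT the order differed: WT library 4 had the highest lymphocyte sum and the lowest class II sum, 139 CPM. Cd8b1, with the smallest p of the list, had 4.03, 1.06, 5.45 and 0.963 CPM in cKO, against 0.636, 0.332, 0.989 and 2.94 CPM in WT, a log2 fold change of 1.25 ± 0.74 (SE, edgeR adjusted p = 0.921) that was 0.74 without cKO library 3 and 2.15 without WT library 4. The part of lymphocytes in the pattern was not tested.

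**Figure D5:**
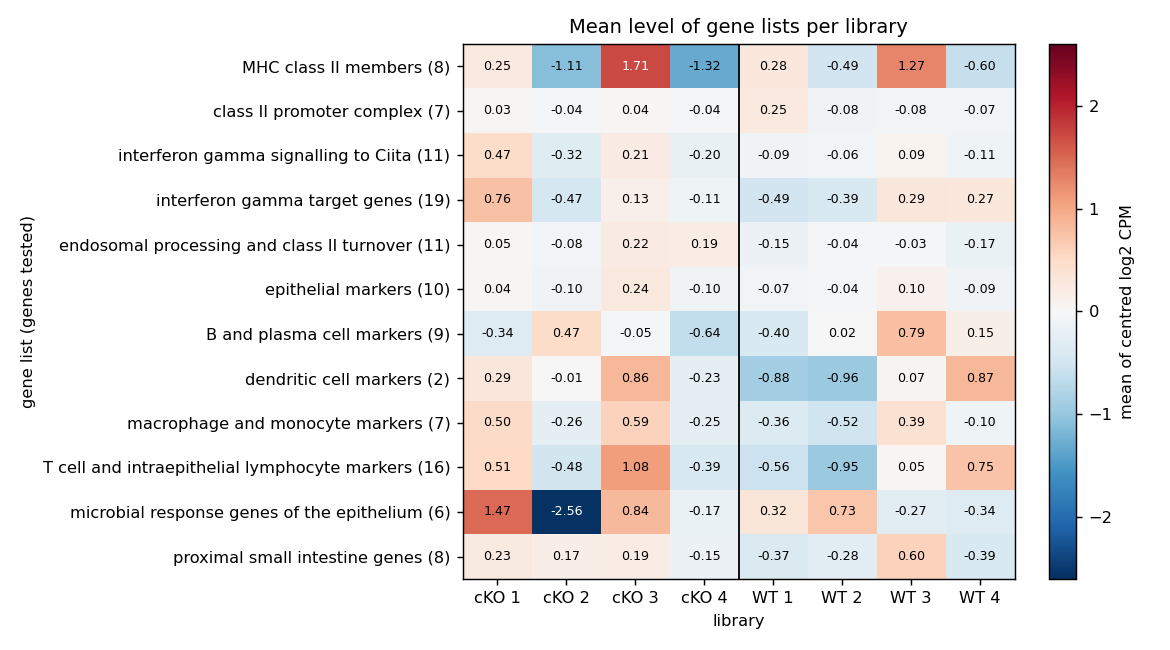
Mean of centred log2 CPM over the tested genes of each list (rows, with their number) in each library (columns, cKO left of WT), as colour and value. The class II row runs from -1.32 to 1.71 and is high in cKO library 3 and WT library 3, whereas the lymphocyte row is high in cKO library 3 and WT library 4.

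Genes of the epithelium that respond to microbes varied widely as well. Reg3b, an antimicrobial lectin, had 14440, 993, 3136 and 3982 CPM in cKO libraries 1 to 4, against 5544, 7697, 886 and 1739 CPM in WT libraries 1 to 4, so that WT library 3, second for class II, was lowest among WT libraries. Nos2, the inducible nitric oxide synthase and the member with the smallest p of its list, came nearer to the class II order. It had 21.6, 0.886, 51.6 and 11.6 CPM in cKO, against 10.1, 8.29, 22.2 and 7.52 CPM in WT, a log2 fold change of 0.84 ± 0.95 (SE, edgeR adjusted p = 0.922) that was -0.079 without cKO library 3. Genes of the proximal small intestine, 8 of 8 tested with 6 higher and 2 lower in cKO and 0 called, summed to 3960, 3310, 3970 and 2890 CPM in cKO, against 2250, 2540, 6340 and 2540 CPM in WT. WT library 3 was thus highest for absorptive genes of the villus such as Lct, at 1531 CPM against 302.5 to 438 CPM in the other WT libraries, as well as for class II. Their part in the class II pattern was not tested.

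The genes most like the class II pattern were sought among 12385 named genes by Pearson r over the 8 libraries, as a description. The nearest were Lyn, a Src family kinase, at 0.976, Nlrx1, a mitochondrial NOD-like protein, at 0.969, Rac1, a small GTPase, at 0.968, and Abhd17a, a depalmitoylating enzyme, at 0.968. They were followed by Coro1c, Lasp1, Os9, Klhl18, Bmp8b and Pcsk7, down to 0.959. In all 92 genes (0.743%) reached 0.9, but most moved little: Lyn varied 1.95-fold and Rac1 1.22-fold over the libraries. Within genotypes, as deviations from group means, the nearest were Dnpep at 0.992, Myh14 at 0.991 and Abhd17a at 0.987, and 3 genes were among the first 10 by both measures. Of the 489 genes that varied at least as much as Ciita, 1 reached 0.9. This gene, named after its values were seen, was Ly6d, a surface protein of the Ly6 family, with r = 0.922 and 1.13, 0.354, 1.46 and 0.193 CPM in cKO libraries 1 to 4, against 0.636, 0.442, 1.11 and 0.611 CPM in WT libraries 1 to 4.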

How the data were processed

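RNA-seq of 4 cKO and 4 WT libraries of mouse intestinal epithelial cells was used. Per the series' design text, total mRNA was sequenced on an Illumina instrument and the authors obtained transcript data using Hisat2, then Stringtie. The sources used here do not state versions, counting program, strand setting or build. The authors deposited whole-number counts per gene without normalization and FPKM for the same 54139 genes. Of 53620 identifiers found in GENCODE M21 (GRCm38), 97.1% had identical coordinates, and coordinates are the deposited ones on that build; for 6 of the 8 genes the annotated ends differ slightly or by isoform from M21.

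Counts were tested with edgeR 4.0.16 in R 4.3.3 (quasi-likelihood F-test, robust, TMM factors, default filter, 14701 genes, genotype as the only term) with Benjamini-Hochberg adjustment over all genes. The SE is the log2 fold change divided by the square root of F. Patterns use log2 CPM with a prior count of 2. Correlations and differences of single genes have exact permutation tests. Every pair of libraries differed by more than sampling noise (lowest chi-square per degree of freedom 9.84). Where libraries are not separate animals, p-values reflect only technical spread. The edgeR step was tested on simulated data. Alternatives used DESeq2 1.42.0 and limma 3.58.1, on counts and on log2(FPKM + 0.1) or log2(FPKM + 1) with a mean FPKM minimum of 0.5 or none. The fits without both libraries 3 and with length and GC offsets were added after the data were seen. The labels do not say whether the replicate numbers pair the libraries, and the main fit treats them as unpaired. The 8 genes and all lists were chosen with earlier results of these data known. Named are the 8 genes, the other class II region genes, list members with unadjusted p under 0.05 (otherwise the smallest p) and the 10 genes most like the pattern. Other genes given as examples were chosen after their values were seen.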

Additional observations from a re-analysis of the deposited data

Results flagged for a closer look

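Among 56 sets of 4 same-genotype libraries examined, 8 held an extreme value set off from its neighbours by most of the range. About 1 in 20 would be flagged by chance among values spread evenly, which CPM values need not be. The sets are also not independent, since H2-Aa, H2-Ab1 and H2-Eb1 moved together, with r of 0.983 to 0.995. Whether 8 of 56 exceeds chance was not tested. The first 3 were class II chains in cKO library 3: H2-Aa, at 67.8 CPM, was separated by 0.864 of the range from the remaining values of 5.61 to 14.0 CPM. H2-Ab1 there was at 181 CPM, against 15.5 to 39.5 CPM, a gap of 0.855, and H2-Eb1 at 95.8 CPM, against 6.79 to 16.0 CPM, a gap of 0.897. Jak2 reached 162 CPM in WT library 3, with 97.9 to 105 CPM elsewhere in WT and a gap of 0.883. Ifi30 reached 4.75 CPM in cKO library 4, with 0.711 to 1.18 CPM elsewhere in cKO and a gap of 0.883. Ada, an enzyme of purine breakdown in the proximal gut list, stood at 78.9 CPM in cKO library 4, with 153 to 160 CPM elsewhere in cKO and a gap of 0.913. H2-Oa had its lowest WT value, 0.221 CPM, in library 2, with 0.367 to 0.371 CPM elsewhere in WT and a gap of 0.971 that rests on 4 to 7 counts a library. H2-Ea-ps in WT library 4 rested on 1 count against 0 in the other WT libraries, a gap of 1.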

How the results depend on the processing

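None of the 8 class II genes was called and none had groups without overlap in any alternative, and 0 genes of the pathway lists were called. The number of the 8 with a lower estimate in cKO was 2 with all libraries, 4 with length and GC offsets, 5 in limma on FPKM with either pseudocount or without filter, 5 with the replicate block, 5 without both libraries 3, 7 with limma voom and quality weights, 1 with upper-quartile factors, and 0 to 7 without 1 library. The median log2 fold change of 0.18 ran from -1.30 to 0.82 without 1 library. Genes called in all numbered 2, with 41 in DESeq2, 8 with limma voom, 10 without filter, 4 without both libraries 3, 0 with the replicate block, 0 in limma on log2(FPKM + 0.1) and on log2(FPKM + 1) with a minimum, and 0 to 3 without 1 library. The median was between -0.98 and 0.20 in the other alternatives, and Rictor was between -0.67 and -0.25 throughout.

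Signs turned as follows, none past the threshold. Cd74 (0.24) was at -0.0010 with length and GC offsets, -0.44 on log2(FPKM + 0.1) with or without filter, -0.43 on log2(FPKM + 1), -1.22 with limma voom, -0.44 with the replicate block, -0.65 without both libraries 3 and -1.33 to 0.92 without 1 library. H2-Ab1 (0.015) was at -0.22, -0.46, -0.43, -1, -0.45 and -0.76 in the same order, and -1.34 to 0.60 without 1 library. H2-DMb1 (0.15) was at -0.021, -0.50, -0.30, -1.27, -0.43 and -0.62, and -1.26 to 0.80. H2-Aa (-0.024) was at 0.090 with length and GC offsets, 0.0097 with upper-quartile factors and -1.49 to 0.85 without 1 library. H2-Eb1 ran from -1.69 to 0.54, Ciita from -0.32 to 0.55 and H2-DMa from -0.29 to 0.86 without 1 library, and with limma voom Ciita was at -0.38 and H2-DMa at -0.33. H2-Ob was at 0.27 with limma voom, 0.31 without both libraries 3 and -0.47 to 0.41 without 1 library, H2-Eb2 at -0.19 to 0.70 without 1 library, Jak2 at 0.042 without both libraries 3, and Nos2 at -0.73 with limma voom and -0.079 to 1.31 without 1 library. The cause of these turns was not tested.

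Whether the replicate numbers pair the libraries could not be settled with so few libraries. Deviations from group means over 12202 genes correlated between same-numbered libraries by -0.158, 0.107, 0.146 and 0.226 for numbers 1 to 4. Of the 4 cKO libraries, 2 correlated best with their own number. The mean class II level followed the same order of numbers in both genotypes. For libraries 3, 1, 2 and 4 it was 1.71, 0.25, -1.11 and -1.32 in cKO, and 1.27, 0.28, -0.49 and -0.60 in WT. Depth limits H2-DMb2, which had 6 to 41 counts a library and left the fit that asked for 1 CPM in 4 libraries, H2-Oa and H2-Eb2.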

Other observations

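Il7r, the interleukin 7 receptor of resting lymphocytes and innate lymphoid cells, was the gene of the marker lists with the smallest unadjusted p. It had 1.78, 0.827, 1.405 and 1.155 CPM in cKO libraries 1 to 4, against 0.424, 0.276, 0.247 and 0.428 CPM in WT libraries 1 to 4. The groups did not overlap, as for 3.21% of all genes tested. On the log2 scale cKO exceeded WT by 1.88 ± 0.38 (SE), with an edgeR adjusted p of 0.374. Of the 7 markers in the list of group 3 innate lymphoid cells 4 were tested, 3 with higher and 1 with a lower estimate in cKO and 0 called. Il22 had 2 counts in all, in WT library 2.

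The pseudogene H2-Ea-ps had 8 counts in cKO libraries 1 and 2 together, which were also the libraries with the most H2-DMb2, at 2.43 and 1.42 CPM, and 2 of the 3 with the most H2-Eb2, at 0.8293 and 1.06 CPM. WT library 3, the other one, had H2-Eb2 at 1.05 CPM. Genes of the distal gut, 6 of 8 tested with 5 higher and 1 lower in cKO and 0 called, summed to 391 to 933 CPM in cKO and 553 to 697 CPM in WT. Guca2a, with the smallest p among them, was at 0.15 ± 0.14 (SE, edgeR adjusted p = 0.921), Ada at 0.93 ± 0.45, Krt18 at 0.19 ± 0.13 and the endothelial marker Pecam1 at 0.43 ± 0.37. Without 1 library these values moved: Guca2a to 0.052 without cKO library 2 and 0.24 without cKO library 4 or WT library 4, Ada to 1.5 without WT library 3, Krt18 to 0.083 without cKO library 3. For Pecam1, leaving out cKO library 1 gave 0.26, leaving out WT library 3 gave 0.69 and leaving out WT library 4 gave 0.21.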
